A study of Mus musculus with 6 samples.

Results

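The genes that make cholesterol and fatty acids were followed in 1676 cells, a mouse pre-B cell line of genotype SLP-65-/- LAT-/-, on 6 single-colour Agilent arrays. All cells carried both gene deletions, were kept in excess IL-7, were infected with a retroviral vector and were selected with puromycin. The groups were a control vector, a vector expressing miR-26a (from hsa-miR-26a-2) and a vector expressing a sponge transcript that sequesters the miR-26 family, with 2 arrays in each group from 2 experiments. All arrays come from 1 cell line, so the replicates measure the spread between cultures of that line and not between animals. The set was given as 30 gene names, comprising 7 genes of the mevalonate pathway, 11 of the steps from squalene to cholesterol, 5 regulators of the sterol response, 6 of fatty acid synthesis and the sterol carrier gene Stard4. All 30 names were found on the array, on 45 of its 55681 probes. Of these, 43 probes passed the filter on low signal (at least 4 arrays with a processed signal over 50, and at least 1 well above background), out of 20168 probes and 11273 named genes in all, so every gene of the set was tested. A second probe each of Hmgcs1 and Fdft1 did not pass and is not described further.

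Cholesterol is built from acetyl-CoA through mevalonate, isoprenoid units, squalene and lanosterol, and fatty acids are built from the same acetyl-CoA by acetyl-CoA carboxylase and fatty acid synthase. The transcription factors SREBP1 and SREBP2 (genes Srebf1 and Srebf2) switch on most of these genes when sterols are low. Their escort protein Scap carries them out of the endoplasmic reticulum, whereas the Insig proteins hold them there when sterols are plentiful. Proliferating lymphocytes, pre-B cells in IL-7 among them, need both products for new membranes.

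The microRNA introduced and its family member in the mouse share the seed, bases 2 to 8 of the mature strand, which is shown in capitals because it decides which transcripts a microRNA can pair with. RefSeq (GRCm38.p6) gives the mature mmu-miR-26a-5p at chr9:119031811-119031832 (Mir26a-1) and chr10:126995543-126995564 (Mir26a-2), and mmu-miR-26b-5p at chr1:74394324-74394344, all on the plus strand. The level of the mature microRNAs was not analysed here.
mmu-miR-26a-5p: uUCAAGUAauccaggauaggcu
mmu-miR-26b-5p: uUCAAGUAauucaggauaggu
The complement of this seed, TACTTGA, was found in 0 of the 43 tested probes of the set and in 0.441% of all tested probes. Its variant ACTTGAA was found in 0 of the 43 as well, against 0.739% of all. The shorter match ACTTGA was found in 1, the brightest probe of Srebf2, against 2.0% of all probes. These probes are 60 bases long and cover a small stretch of each transcript, and the rest of the transcripts was not searched. The part of the Srebf2 probe that holds the shorter match is printed with the match in capitals, since Srebf2 encodes a transcription factor of the sterol response.
Srebf2: tttgcattctggACTTGAtagacgcacccc

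The arrays were alike in the share of spots detected. Between 28823 and 29800 of the 59305 spots (48.6% to 50.2%) were well above background on each, and no spot was saturated. The median difference between the replicates of a group over the members was 0.07 (log2) for control, 0.10 for miR-26a and 0.10 for sponge. Over all probes it was 0.10, 0.12 and 0.15 in the same order, largest for sponge. The 8 pre-B cell markers used, Cd79a, Vpreb1 and Igll1 among them, were well above background on all 6 arrays, with a summed processed signal of 419300 to 461300. Hepatocyte markers, those of the best-known sterol-producing tissue, were below background throughout (0 of 4 on all arrays), and so were 5 of 6 stromal markers, Col1a2 being the exception. Of 8 myeloid markers 4 were well above background on every array, with a sum of 4191 to 4772 with miR-26a, 3960 to 4718 in control and 3389 to 5173 with sponge. With miR-26a these 4 went both ways on their brightest probes, by 0.33 for Cd68 (log2, limma adjusted p = 0.0421), 0.06 for Itgam, -0.02 for Elane and -0.04 for Csf1r. A dimmer probe of Itgam was called lower (-0.82, limma adjusted p = 0.0072). With sponge Csf1r gave -0.69 at its brighter probe (limma adjusted p = 0.223) and 0.09 at the other. Lyz2 and Mpo were above background on 1 array each, Emr1 on 5 and Cd14 on 0. For Emr1 the sponge arrays lay far apart, with log2 signals of 2.44 and 4.89. The part of myeloid RNA in the results was not tested. Of 6 T cell markers 3 were above background on every array. Their list summed to 2097 and 2232 with miR-26a, 2654 and 2376 in control and 2432 and 2349 with sponge. On their brightest probes Lck, Cd3e and Cd4 gave -0.44, -0.09 and -0.03 with miR-26a. The same genes gave 0.00, -0.29 and -0.32 with sponge, and 0 of these changes were called. The arrays cannot tell fewer cells of a type from less RNA per cell. Arrays with the same number lie in 1 column of the slide, so that experiment and slide position cannot be told apart.

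All members were measured with ease. Every tested probe of the set was well above background on all 6 arrays, and the median log2 signal over the 30 genes, each on its brightest tested probe, was 11.19 to 11.32. Values given are quantile-normalized log2 processed signals, called log2 signals, and differences between them are log2 changes from 1 limma fit to the 6 arrays in which the experiment was a block. A gene was called changed at an adjusted p under 0.05 over all 20168 probes. Levels are compared between arrays only, since the signals of different probes do not stand for relative transcript amounts.

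With miR-26a, the pathways stayed close to control, mostly slightly above it, and 1 gene passed the test. Acat2, the cytosolic thiolase that starts the pathway by joining acetyl-CoA units, fell, whereas 0 of the 30 genes were called higher. Over all genes 5.86% were called lower and 5.19% higher, so the set held no more called genes than the array as a whole. Without adjustment, 9 genes were higher and 2 lower at p under 0.05, against 15.9% and 13.7% of all genes. The change was positive for 23 genes and negative for 7, where 45.8% of all genes were negative. The median was 0.11 (log2), 0.08 in experiment 1 and 0.15 in experiment 2, beside a median of 0.02 over all genes. For 16 genes both miR-26a arrays lay above both control arrays and for 5 genes both lay below, an order that 29.6% and 24% of all genes showed. The changes were small, and for 27 of 30 genes the 95% interval of the change lay within 0.5 log2 units of 0 on either side.

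**Figure D1:**
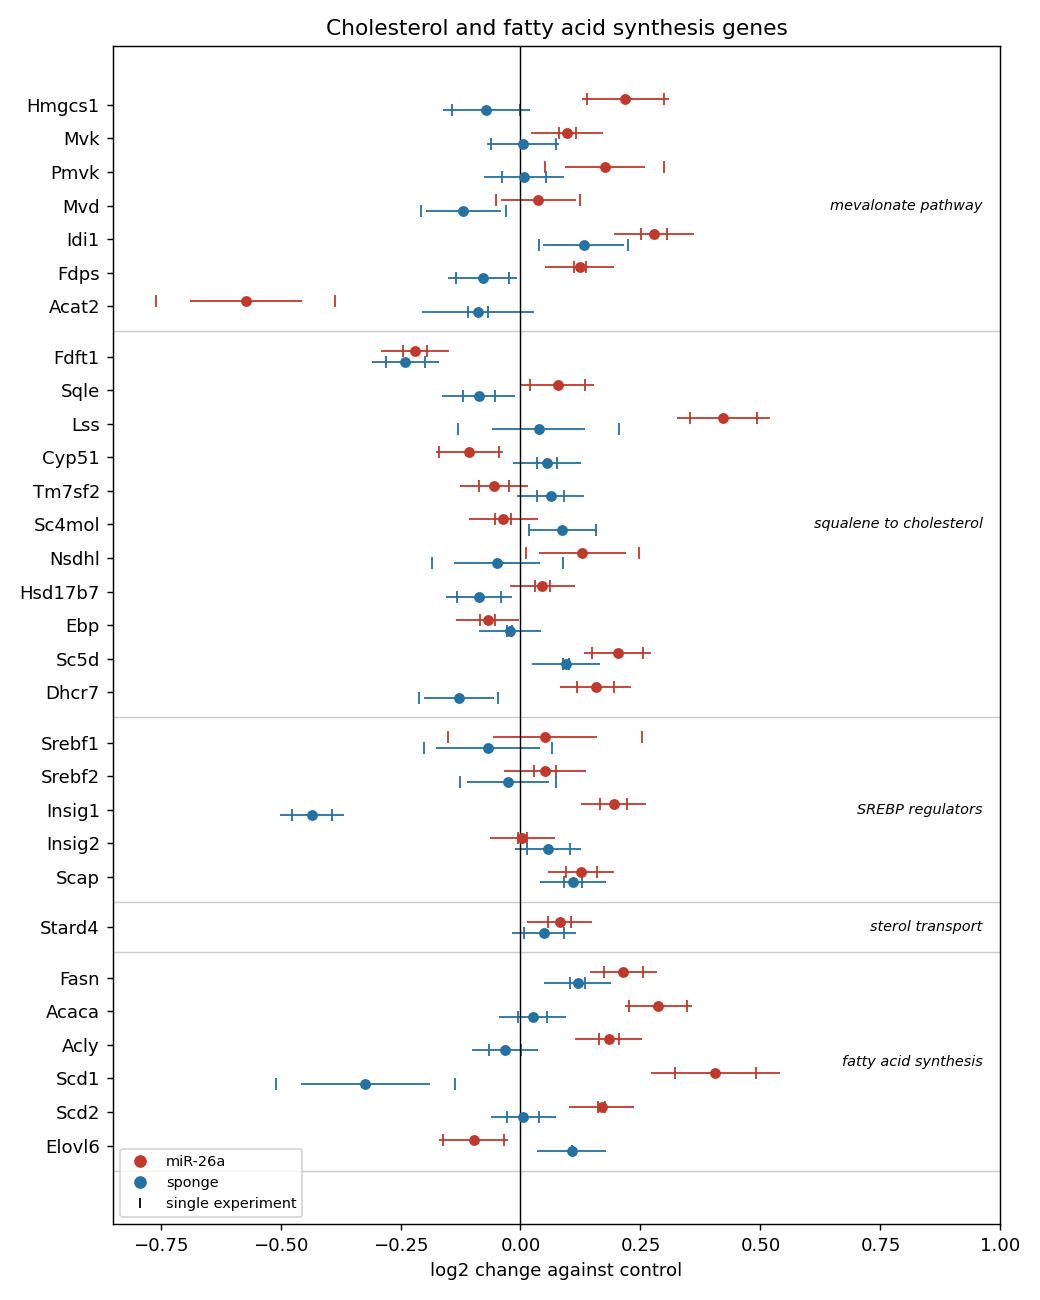
Log2 change against control of each of the 30 genes (rows, grouped by role) with miR-26a (red) and with the sponge (blue). Dots are the fitted changes, horizontal lines 1 standard error and upright ticks the 2 single experiments; most red dots lie just right of 0, with Acat2 far to the left, and the blue dots scatter around 0, with Insig1 and Scd1 to the left.

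The sponge left the set without any called gene. Of the 30 genes 0 were called lower and 0 higher, as were 0% and 0.00887% of all genes. Without adjustment 2 genes were lower at p under 0.05 (Insig1 and Fdft1, against 7.33% of all genes) and 0 were higher (against 7.28%). The signs were balanced, with 15 genes above and 15 below control, where 46.3% of all genes were below. The median change was -0.01 (log2), beside 0.01 over all genes. Both sponge arrays lay below both control arrays for 7 genes and above them for 5, against 18.7% and 19% of all genes. For 28 of 30 genes the 95% interval lay within 0.5 log2 units of 0.

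Set directly against each other, miR-26a and sponge arrays differed for 3 genes of the set. Acat2 was lower with miR-26a, and Insig1 and Scd1 were higher, where 9.46% and 8.86% of all genes were called in these directions. Without adjustment 8 genes were higher and 2 lower, against 19.3% and 16.8% of all genes. The median difference was 0.13 (log2) over the set and 0.02 over all genes. With miR-26a 23 of 30 genes were higher, where 46.5% of all genes were lower. Both miR-26a arrays lay above both sponge arrays for 17 genes and below them for 6, against 28.2% and 24.2% of all genes. The comparisons with control share the control arrays, so the changes for miR-26a and sponge are given side by side and are not independent of each other. By sign alone, 12 genes lay above control with miR-26a and below it with sponge, 11 lay above in both, 3 below in both and 4 the other way round. The share of all genes in each of these patterns was not counted.

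The mevalonate pathway runs from acetyl-CoA to farnesyl diphosphate, and its first gene was the one that fell. Acat2, read by a probe at chr17:13136482-13136541 (mm9, minus strand), gave log2 signals of 7.20 and 7.37 in control, 6.81 and 6.61 with miR-26a and 7.09 and 7.30 with sponge. Both miR-26a arrays lay below the other 4, while control and sponge arrays overlapped. The change with miR-26a was -0.57 ± 0.12 (SE), a ratio of 0.672, with a limma adjusted p of 0.0408. It was -0.39 in experiment 1 and -0.76 in experiment 2. With the sponge the change was -0.09 (adjusted p = 0.732), and miR-26a against sponge gave -0.48 ± 0.12 (adjusted p = 0.0456), with -0.28 in experiment 1 and -0.69 in experiment 2. Without miR-26a replicate 2 the change was -0.38 against control and -0.29 against sponge. With normexp it was -0.38 and -0.33, both still called (adjusted p = 0.0345 and 0.0423). The call against control was lost without either control array, without miR-26a replicate 2 and without either sponge array, with adjusted p from 0.0713 to 0.246, and without the block on the experiment (adjusted p = 0.0942). The call against sponge was lost in the same cases (adjusted p = 0.0873 without the block).

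The other 6 genes of this pathway lay above control with miR-26a, by 0.04 to 0.28, and did not pass the test. Hmgcs1, the HMG-CoA synthase that commits carbon to the pathway, gave 13.86 and 13.82 in control, 13.99 and 14.12 with miR-26a and 13.86 and 13.68 with sponge. Idi1, the isomerase that activates the isoprenoid unit, gave 13.52 and 13.39 in control, 13.77 and 13.69 with miR-26a, and 13.75 and 13.43 with sponge. For both genes the miR-26a arrays lay above the control arrays, and for Idi1 the sponge arrays of the 2 experiments lay far apart. The changes with miR-26a were 0.22 ± 0.09 for Hmgcs1 (limma adjusted p = 0.198) and 0.28 ± 0.08 for Idi1 (adjusted p = 0.103). The kinases Mvk (0.10) and Pmvk (0.18), the decarboxylase Mvd (0.04) and the farnesyl diphosphate synthase Fdps (0.12) gave smaller differences, with adjusted p from 0.252 to 0.815. With the sponge the 7 genes lay between -0.12 (Mvd) and 0.13 (Idi1), with a median of -0.07.

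From squalene to cholesterol, 11 genes split into 6 above and 5 below control with miR-26a, with a median of 0.05. By limma 0 were called, and 2 were higher and 1 lower at an unadjusted p under 0.05 (15.9% and 13.7% of all genes). Lss, which folds oxidosqualene into lanosterol, was nearest to the threshold. Its probe at chr10:76015992-76016051 (mm9, plus strand) gave 9.44 and 9.67 in control, 9.93 and 10.02 with miR-26a and 9.64 and 9.54 with sponge. Both miR-26a arrays exceeded the other 4. The change was 0.42 ± 0.10 against control (limma adjusted p = 0.0539) and 0.38 ± 0.10 against sponge (adjusted p = 0.0502). The first passed when arrays were scaled to the 75th percentile (adjusted p = 0.0455) or corrected with normexp (adjusted p = 0.0382). It lay further from the threshold without the block (adjusted p = 0.13) and with probes well above background on all 6 arrays (adjusted p = 0.119). The change was 0.30 without control replicate 1 and 0.54 without control replicate 2.

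Fdft1, the squalene synthase at the branch point into sterols, lay below control with both constructs. It gave 11.27 and 11.35 in control, 11.07 and 11.10 with miR-26a and 10.99 and 11.15 with sponge. The 2 constructs overlapped each other and lay under both control arrays. The changes were -0.22 ± 0.07 with miR-26a (limma adjusted p = 0.118) and -0.24 ± 0.07 with sponge (adjusted p = 0.24), and the 2 constructs differed by 0.02 with a 95% interval of -0.16 to 0.20. The desaturase Sc5d was 0.20 above control with miR-26a (adjusted p = 0.141) and the final reductase Dhcr7 0.16 (adjusted p = 0.244). The remaining enzymes lay between -0.11 for the lanosterol demethylase Cyp51 and 0.13 for the sterol dehydrogenase Nsdhl. In that range fell the epoxidase Sqle (0.08), the reductases Tm7sf2 (-0.06) and Hsd17b7 (0.05), the methylsterol oxidase Sc4mol, now Msmo1 (-0.04), and the isomerase Ebp (-0.07).

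**Figure D2:**
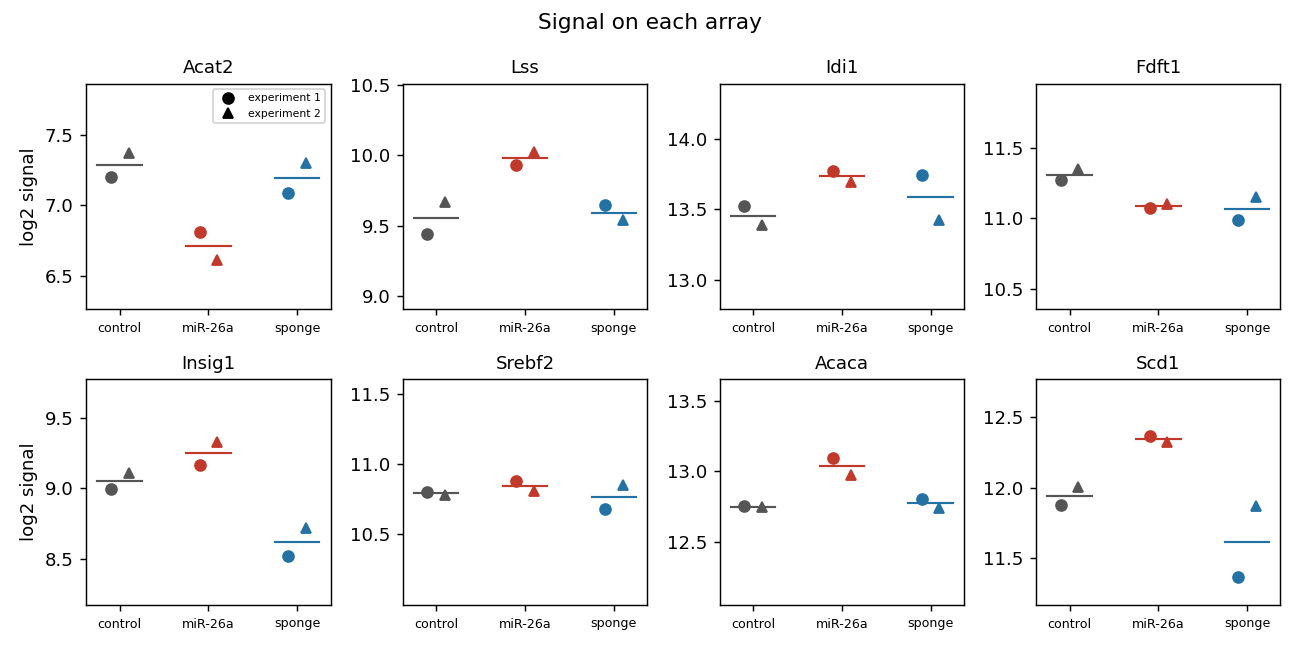
Log2 signal of 8 genes on each array, with circles for experiment 1, triangles for experiment 2 and a bar at the mean of each group; all panels span the same range of log2 units. Acat2 is lowest on the 2 miR-26a arrays, Lss and Acaca are highest on them, Insig1 and Scd1 are lowest on the 2 sponge arrays and Srebf2 is level.

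Of the regulators, Insig1 stood apart in the direct comparison, and the transcription factors were level. Insig1 (probe at chr5:28404246-28404305, mm9, plus strand), itself a gene that SREBPs switch on, gave 9.00 and 9.11 in control, 9.16 and 9.33 with miR-26a and 8.52 and 8.72 with sponge. The 3 groups did not overlap, with sponge lowest and miR-26a highest. Against sponge the miR-26a arrays were higher by 0.63 ± 0.07, a ratio of 1.546 (limma adjusted p = 0.00615), by 0.64 in experiment 1 and 0.61 in experiment 2. Neither difference from control passed the test: it was 0.19 ± 0.07 with miR-26a (adjusted p = 0.139) and -0.43 ± 0.07 with sponge (adjusted p = 0.191, unadjusted p 0.00089). The direct call was lost without sponge replicate 1 (adjusted p = 0.0606) and without sponge replicate 2 (adjusted p = 0.0556).

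Srebf2 gave 10.80 and 10.78 in control, 10.88 and 10.81 with miR-26a and 10.68 and 10.85 with sponge. The 3 groups overlapped. Its change was 0.05 with miR-26a (95% interval -0.16 to 0.26) and -0.03 with sponge. Srebf1 gave 7.18 and 7.14, 7.03 and 7.39, and 6.98 and 7.20 in the same order of groups. These groups overlapped too, and the change of 0.05 with miR-26a has an interval of -0.22 to 0.32. The change of Insig2 was 0.00 with miR-26a and 0.06 with sponge and that of Scap 0.13 and 0.11, with limma adjusted p from 0.305 to 0.982. For Scap experiment 1 was higher than experiment 2 in all 3 groups, and the groups overlapped.

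Fatty acid synthesis was the role with the highest median, 0.20 (log2) with miR-26a over 6 genes. For 5 of the 6 both miR-26a arrays lay above both control arrays, each with an unadjusted p under 0.05, where 29.6% of all genes showed that order and 15.9% that p in this direction. The sixth, Elovl6, lay below, and 0 of the 6 passed the adjusted threshold on their brightest probes. Scd1, the stearoyl-CoA desaturase that makes monounsaturated fatty acids, gave 11.88 and 12.01 in control, 12.37 and 12.33 with miR-26a and 11.37 and 11.87 with sponge (probe at chr19:44469387-44469446, mm9, minus strand). The groups did not overlap, and the sponge arrays lay furthest apart. The miR-26a arrays exceeded the sponge arrays by 0.73 ± 0.13, a ratio of 1.658 (limma adjusted p = 0.0232). The difference was 1.00 in experiment 1 and 0.46 in experiment 2, and it was not called without sponge replicate 1 (0.50, adjusted p = 0.0895) or without the block (adjusted p = 0.0703). Against control the difference was 0.41 ± 0.13 with miR-26a (adjusted p = 0.124) and -0.32 ± 0.13 with sponge (adjusted p = 0.322). For its paralog Scd2 the differences were 0.17 and 0.01. Cross-hybridisation between the paralogs was not tested.

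Acaca, the acetyl-CoA carboxylase that sets the pace of fatty acid synthesis, was read by 4 probes. The brightest (chr11:84215093-84215152, mm9, plus strand) gave 12.75 and 12.75 in control, 13.10 and 12.97 with miR-26a and 12.81 and 12.74 with sponge. Only the miR-26a arrays stood apart, with a change of 0.29 ± 0.07 (limma adjusted p = 0.0621). A probe shifted by 1 base gave 0.32 ± 0.07 and passed (adjusted p = 0.0404), but the probes share nearly all their bases and are not separate evidence. A probe 3455 bases upstream passed too, with 0.47 ± 0.08 (adjusted p = 0.026), and the probe furthest upstream gave 0.31 ± 0.07 (adjusted p = 0.0529). All 4 probes were above control with miR-26a by 0.29 to 0.47, in both experiments, and the mean over them passed the test (0.35, adjusted p = 0.0288). Without the block the 2 called probes were not called (adjusted p = 0.169 and 0.256). With normexp the change at the upstream called probe was 0.24 and was not called (adjusted p = 0.0665), and each of the 2 calls was lost in 10 of 14 alternatives. For Fasn, the synthase itself, the change was 0.21 ± 0.07 (adjusted p = 0.119), and Acly, which supplies cytosolic acetyl-CoA from citrate, 0.18 ± 0.07 (adjusted p = 0.161). For Elovl6, which lengthens palmitate, it was -0.10 (adjusted p = 0.45).

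With the sponge, probes of 1 gene could differ. At the 2 upstream probes of Acaca the sponge arrays gave -0.26 and -0.29, whereas the 2 overlapping probes at its downstream end gave 0.03 and 0.02. The upstream probes were dim, with processed signals on the sponge arrays near the filter limit of 50. They were 49.9 and 52.4 at the first and 47.2 and 58.2 at the second, against 7612 and 7267 at the brightest downstream probe. At the upstream probes miR-26a against sponge was called, with 0.73 (limma adjusted p = 0.00651) and 0.60 (adjusted p = 0.00753). Of the downstream pair, the dimmer probe was called as well (0.30, adjusted p = 0.0349) and the brighter was not (0.26, adjusted p = 0.0582). With normexp the upstream differences were 0.39 and 0.30. Both upstream calls were lost when either sponge array was left out, and the first also without the block (adjusted p = 0.0752). The dimmer probe of Acly, 27844 bases upstream of the brighter in the genome, gave -0.34 with sponge against -0.03 at the brighter, and the dimmer probe of Mvk, 241 bases upstream, gave -0.27 against 0.01. At both of these miR-26a against sponge was called, with 0.36 (adjusted p = 0.0249) and 0.39 (adjusted p = 0.028). The Acly call was lost in 11 of 14 alternatives and the Mvk call in 10 of 14, without the block and without any single array among them, and with normexp the Acly difference was 0.23.

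Of the 10 genes with more than 1 tested probe, 9 kept 1 direction over their probes with miR-26a against control, but 2 did with sponge. The exception with miR-26a was Insig2, with 0.00 at the brighter and -0.10 at the dimmer probe. The 3 probes of Hsd17b7 gave -0.09, -0.08 and 0.15 with sponge, from brightest to dimmest. Processed signals of the dimmest, 47.4 to 61.3, lay near the filter limit of 50, and its single experiments gave 0.48 and -0.18. Beside Acaca, Mvk and Hsd17b7, the brighter and dimmer probes with sponge gave -0.05 and 0.16 for Nsdhl and 0.06 and -0.14 for Tm7sf2. Those of Pmvk, Insig2 and Srebf2 differed in sign by less than 0.1, and with sponge against control limma called 0 of the probes of the set. Over all 2145 genes whose tested probes lay at least 1000 bases apart, the sponge change at the most upstream probe was lower than that at the most downstream one by a median of -0.03 (quartiles -0.15 and 0.07), and was the lower of the pair for 59.4% of genes. The same share was 44.8% with miR-26a. Whether probe position or probe signal level plays a part in the values of Acaca, Acly and Mvk was not tested. Dimmer probes of Nsdhl (0.51, adjusted p = 0.0744) and of the sterol carrier Stard4 (0.27, adjusted p = 0.0619) were higher with miR-26a by limma's estimate than their brighter ones (0.13 and 0.08), none being called.

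**Figure D3:**
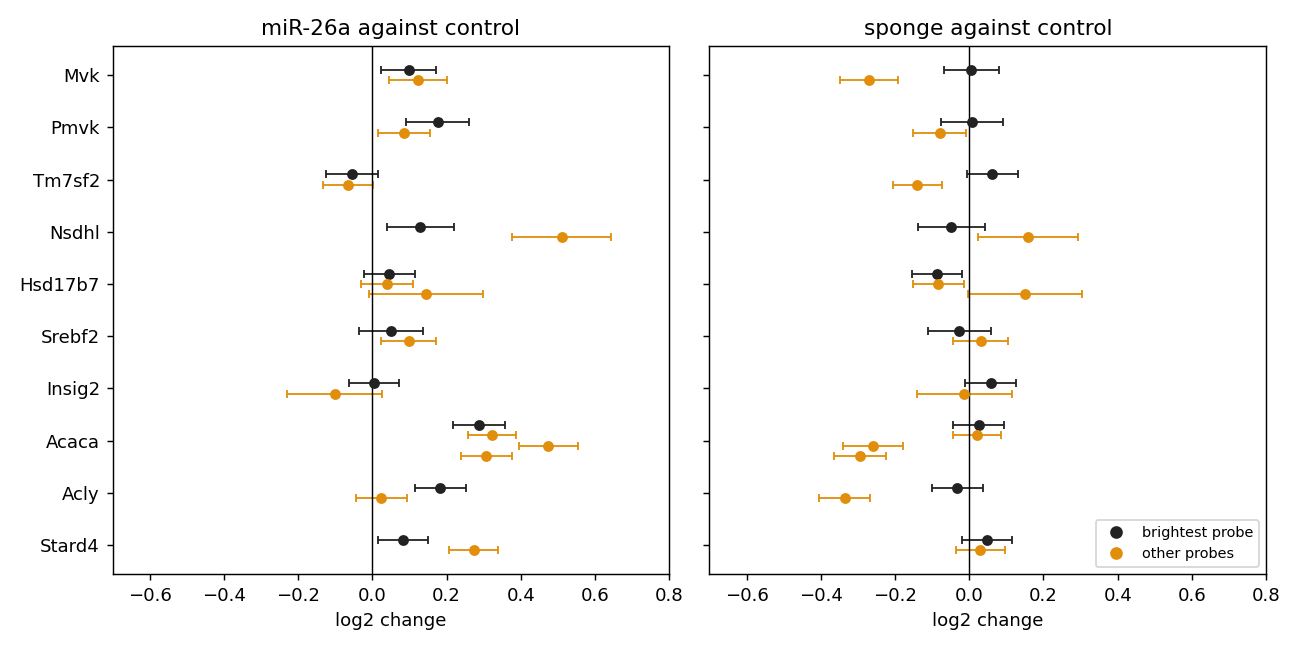
Log2 change against control at every tested probe of the 10 genes with more than 1, with miR-26a (left) and sponge (right); black dots are the brightest probe of a gene, orange dots its other probes and lines 1 standard error. With miR-26a the 4 Acaca probes lie together at 0.29 to 0.47, and with the sponge they form a pair at 0.03 and 0.02 and a pair at -0.26 and -0.29.

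The promoters of the set were searched for shared motifs. RefSeq windows (GRCm38.p6) from 250 bases before to 50 after the start site were given for 24 of the 30 genes. The sterol regulatory element core TCACNCCAC, a form of the site SREBPs bind, was found on either strand in 1 of them, Hmgcs1, and in 1.44% of all promoters. The NF-Y box CCAAT and the Sp1 box GGGCGG, bound by factors that act with SREBPs, were each found in 20 of the 24 (83.3%), against 41.1% and 38.2% of all promoters and 43.8% and 68.9% of those of tested genes. None of the 3 motifs contains another, and a match describes letters and not binding. The stretches printed are the SREBP core in Hmgcs1, the NF-Y boxes of Insig1 and Lss, whose values are described above, and the Sp1 box of Acat2, whose window lacks the NF-Y box. Capitals mark the motif, on either strand.
Hmgcs1: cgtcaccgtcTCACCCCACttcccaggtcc
Insig1: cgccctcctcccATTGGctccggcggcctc
Lss: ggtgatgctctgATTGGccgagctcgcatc
Acat2: gaggccatagctCCGCCCcccccagcacag
They lie at chr13:119690204-119690233, chr5:28071184-28071213 and chr10:76531531-76531560 on the plus strand and at chr17:12960741-12960770 on the minus strand. The NF-Y box was not found in the windows of Acaca, Elovl6 and Scap either.

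Genes around the set were examined in 5 lists, and calls with miR-26a fell in both directions. The counts of calls stand against 5.86% of all genes called lower and 5.19% called higher. Of the genes of SREBP processing and sterol sensing (9 of 10 tested) 0 were called lower and 2 higher. Erlin2, part of the complex that degrades sterol-regulated proteins, rose by 0.49 ± 0.07 (limma adjusted p = 0.0153), from 9.01 and 8.91 in control to 9.51 and 9.40. Its sponge arrays, at 9.26 and 9.23, lay above control as well (0.28, adjusted p = 0.222). The direct difference between miR-26a and sponge was 0.21 and was not called (adjusted p = 0.0895). Fbxw7, the ubiquitin ligase subunit that targets active SREBPs, rose by 0.45 ± 0.07 (adjusted p = 0.0216), from 9.83 and 9.76 to 10.33 and 10.17. Its sponge arrays gave 9.72 and 9.71, and the direct difference was called (0.53, adjusted p = 0.0108). For neither gene did the miR-26a arrays overlap control. Each call in these lists was lost without either control array, and over 15 alternatives from 4 (Gpam) to 12 (Stard5) lost it.

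In the isoprenoid branches and their electron supply (17 of 18 tested) 1 gene was called lower and 2 higher. The 2 subunits of the enzyme that builds the ubiquinone side chain went apart. Pdss2 fell by 0.60 on the log2 scale (limma adjusted p = 0.0108), and Pdss1 rose by 0.31 (adjusted p = 0.0451). Cyb5r3, a cytochrome b5 reductase that feeds electrons to desaturases, rose by 0.48 (adjusted p = 0.0287). For Nus1, a subunit of the enzyme that makes dolichol, the brighter probe gave 0.12 (adjusted p = 0.302) and the dimmer was called lower (-0.75, adjusted p = 0.0152).

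Of other genes of fatty acid synthesis, elongation and activation (22 of 28 tested), 2 were called lower and 2 higher. Acss2, which makes acetyl-CoA from acetate, gave 5.46 and 5.58 in control, 6.36 and 6.54 with miR-26a and 6.02 and 5.74 with sponge. It rose by 0.94 ± 0.12 (limma adjusted p = 0.0144), and its sponge arrays lay between the other groups. The probe was dim, with control signals near the filter limit of 50. With normexp the change was 0.50, still called (adjusted p = 0.00567). Slc25a1, the citrate carrier of mitochondria, rose by 0.42 ± 0.07 (adjusted p = 0.0216). The citrate it exports is the substrate of Acly.

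Gpam, the acyltransferase that starts glycerolipid synthesis, gave 9.24 and 9.33 in control, 8.49 and 8.55 with miR-26a and 9.30 and 9.31 with sponge. It fell by 0.77 on the log2 scale (limma adjusted p = 0.00649). The sponge arrays lay within or near the control values. Elovl4, an elongase of very long chains, fell by 0.88 (adjusted p = 0.0132), and miR-26a against sponge was -1.30 ± 0.11 (adjusted p = 0.00375). With normexp these were -0.49 and -0.80, both called, and without the block neither was (adjusted p = 0.188 and 0.0556). For the desaturase Scd3 the brighter probe gave 0.04 (adjusted p = 0.855) and the dimmer was called higher (0.44, adjusted p = 0.0298).

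Among genes of sterol uptake, traffic and storage (13 of 15 tested), 3 were called lower and 1 higher. The lysosomal acid lipase Lipa fell by 0.57 on the log2 scale (limma adjusted p = 0.0214). The oxysterol-binding proteins Osbpl2 and Osbpl5 fell by 0.56 (adjusted p = 0.0137) and 0.40 (adjusted p = 0.0293). Stard5, a relative of Stard4, rose by 0.34 (adjusted p = 0.0411), but its dimmer probe gave 0.07 (adjusted p = 0.836), and with normexp the brighter gave 0.21 and was not called (adjusted p = 0.102). For Tmem97 the brighter probe gave 0.30 (adjusted p = 0.0694) and the dimmer was called (0.31, adjusted p = 0.0469). Of the LXR factors and sterol efflux genes (7 of 9 tested) 0 were called, with 1 lower and 0 higher without adjustment and a median of -0.08. With sponge against control limma called 0 genes in each of the 5 lists. At an unadjusted p under 0.05 sponge gave 1 higher in SREBP processing, 3 lower and 1 higher in the isoprenoid list, 1 lower and 5 higher in the fatty acid list, 1 higher in uptake and 2 lower in the LXR list, where 7.33% of all genes were lower and 7.28% higher.

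**Figure D4:**
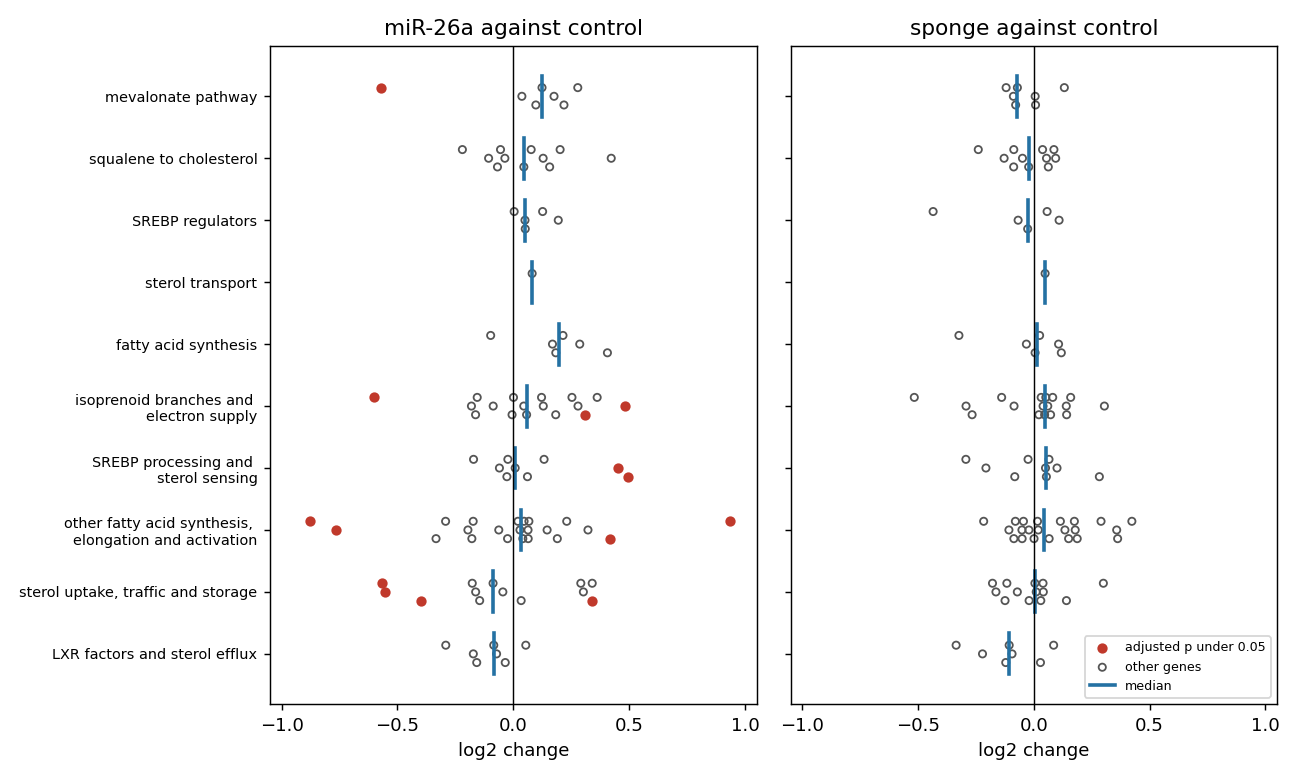
Log2 change against control of each tested gene (circles) in the 5 roles of the set (top) and the 5 lists around it (bottom), with miR-26a (left) and sponge (right); filled red circles have an adjusted p under 0.05 and blue bars are medians. Red circles lie on both sides of 0 with miR-26a, and there are none with the sponge.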

How the data were processed

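The authors hybridised RNA of each sample to 1 single-colour Agilent array of 60-base probes, and deposited for every spot its intensity as a mean signal, a background signal and a background-subtracted processed signal, from Agilent Feature Extraction 10.7.1.1 per the submitters' processing notes. They also deposited a table of quantile-normalized intensities, used as an alternative, which correlated with the processed signals at 0.99996 or above on the log2 scale. Names of genes and their mm9 positions were taken from the array design. Control spots and outlier flags were left out.

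The processed signals were averaged over the spots of a probe after quantile normalization and log2 transformation, and 1 model with a block for the experiment was fitted to the 6 arrays with limma 3.58.1 in R 4.3.3, since the study's methods normalize to the control of each experiment. This left 2 residual degrees of freedom before moderation, and Benjamini-Hochberg adjustment ran over all 20168 tested probes. Groups and experiment numbers came from the labels. Deviations from the group means correlated between same-numbered arrays of different groups (0.38, 0.59 and 0.45 across probes). The titles of the control samples point to an earlier record, so that their pairing rests on the number. A gene was taken on its brightest tested probe, and other probes were named where the call against control differed. Every member was named, and of each other list up to 5 genes with the largest change among those called with miR-26a. Members and lists were chosen with earlier results of these data known. One pre-B cell marker of the lists is not reported here. The procedure was tested on simulated data. Alternatives changed the block, scaling, background correction, filter, probe summary and arrays used. Tables and plots used Python 3.11.15, pandas 2.3.3, numpy 2.4.6 and matplotlib 3.10.9. The number of arrays limits the precision.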

Additional observations from a re-analysis of the deposited data

How the results depend on the processing

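With 2 arrays in a group, calls depended on the setting, those well under the threshold among them. No fitted change of a member with a call turned its sign. The 1 member lower with miR-26a against control, Acat2, became 0 without the replicate block, with the filter at 50 on at least 2 arrays, with probes well above background on all 6 arrays, with no filter and with the 2 log ratios alone, and 0 to 1 when 1 array was left out. Members higher, 0 in the main setting, were 1 under 75th percentile scaling or normexp (Lss) and 1 with probes of a gene averaged (Acaca). Against sponge, the 1 member lower became 0 without the block and under the same 3 filters and the 2 log ratios, and 0 to 1 without single arrays. The 2 members higher became 1 without the block, 4 with normexp, 1 with probes well above background on all 6 arrays, 0 with no filter or the 2 log ratios, 6 with probes averaged and 0 to 2 without single arrays. The median member change stayed between 0.08 and 0.15 for miR-26a against control or sponge when 1 array was left out. For sponge against control it was -0.0081. It was 0.0636 under 75th percentile scaling, a setting that put the median of all probes at 0.04, -0.0187 with normexp, -0.0291 with probes averaged and -0.0094 to 0.0145 without single arrays. Over all probes, 1036 lower and 908 higher calls with miR-26a against control became 238 and 73 without the block, 387 and 194 with probes well above background on all 6 arrays, and 0 with no filter or the 2 log ratios. They were 75 and 29 without control replicate 1 and 98 and 35 without control replicate 2. Without miR-26a replicate 2 the higher calls were 525, and leaving out 1 sponge array, whichever it was, gave 635 and 488. Against sponge 1712 and 1669 became 632 and 365 without the block, 900 and 630 with probes well above background on all 6 arrays, 0 with no filter or the 2 log ratios, 292 and 140 without sponge replicate 1, 285 and 125 without sponge replicate 2, and 1104 and 779 when 1 control array was left out. The higher calls were 1059 without miR-26a replicate 1 and 1087 without miR-26a replicate 2. For sponge against control 0 and 2 became 26 and 10 with normexp, 5 and 7 under percentile scaling, 2 and 8 with the filter at 2 arrays and 22 and 13 when 1 miR-26a array was left out. They became 0 and 0 with probes well above background on all 6 arrays, with no filter, with the 2 log ratios, with probes averaged and when 1 control or sponge array was left out. The causes were not tested.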
